A study of Mus musculus with 14 samples.

Results

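BCOR binding in the mouse retina was followed from the day of birth (P0) to the adult as 4846 regions of chromosomes 1 to 19. These were built from 4 lists of CUT&RUN peaks, 2 libraries at P0 and 2 in the adult. CUT&RUN brings a nuclease to an antibody on chromatin and sequences the DNA it releases, so a peak marks a place where the protein sat. A region was a run of overlapping peaks that held a peak of each replicate of a stage. In all, 816 places had a region at both stages, 3815 had one at P0 alone and 215 in the adult alone. The 10 CUT&RUN lists of the series together held 39193 clusters of overlapping peaks.

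All libraries came from retina of wild-type CD1 mice, and the groups differed in age and antibody, BCOR at P0 and in the adult. Otx2 libraries of the same stages (2 each) and single libraries of both proteins at embryonic day 14 (E14) served for comparison. The labels give no adult age, no count of animals per library and no control of peak calling. Replicates are separate samples by their titles, and their spread may be technical. The labels repeat the electroporation and sorting text of an RNA experiment for every sample, and whether CUT&RUN cells were sorted is not given there. In a mixture of retinal cells, fewer cells of a type and less binding per cell cannot be told apart.

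BCOR is a corepressor that transcription factors such as BCL6 bring to DNA. It is also a subunit of a variant Polycomb repressive complex, where it works with the DNA-binding protein KDM2B and with PCGF1 to place ubiquitin on histone H2A. Otx2 is a homeobox factor that directs cells to the photoreceptor and bipolar fates and stays on in those cells. The newborn retina still holds dividing progenitors beside young photoreceptors, while rods dominate the adult retina.

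The lists differed in length before any comparison of stages. BCOR replicates 1 and 2 had 5292 and 8784 peaks at P0 and 1339 and 2445 in the adult. Read depth is unknown, so these numbers are no measure of the amount of binding. The adult BCOR lists also ran to a q-value of 0.248, against 0.0496 and 0.0481 for the P0 lists. Their peak names alone among the BCOR lists carry the word Trimmed. Both adult Otx2 lists carry it too, and the Otx2 lists of P0 and E14 do not. Age and these differences in processing cannot be told apart. Peaks are on the mouse build mm9, counted from 1, and with no mm9 annotation used here they are named by position and not by gene.

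Most BCOR regions of the newborn retina had no counterpart in the adult lists. Of 4634 P0 regions, 819 (17.7%, 95% Wilson interval 16.6 to 18.8%) overlapped an adult region by at least 1 base and are called kept. The other 3815 (82.3%) are called lost. Among these, 842 still met an adult peak without meeting a shared adult region and are called part lost, 673 of them with a peak of adult replicate 2 alone and 163 of adult replicate 1 alone. The remaining 2973, or 64.2% of all P0 regions, met no peak of either adult library and are called wholly lost. Intervals here cover counting error only, since regions are not replicates of a stage.

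Seen from the adult, most BCOR regions had been present at birth. Of 1035 adult regions, 820 (79.2%, interval 76.7 to 81.6%) overlapped a P0 region, and 215 (20.8%) did not and are called gained. Of the gained regions, 113 met a P0 peak without meeting a shared P0 region and are called part gained, 102 of them with a peak of P0 replicate 2 alone. The other 102, which is 9.86% of all adult regions, met no peak of either P0 library and are called wholly gained. The deposited lists thus showed a small adult set that lay largely within a large newborn set.

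That picture depended on list length. When each of the 4 lists was reduced to its 1339 strongest peaks by q-value, 1027 P0 and 837 adult regions remained, of which 415 of each overlapped. The kept share of P0 regions became 40.4% (interval 37.4 to 43.4%), and the gained share of adult regions became 50.4% (47.0 to 53.8%). By these shorter lists 215 P0 regions were part lost and 397 wholly lost, and 90 adult regions were part gained and 332 wholly gained. Of the 422 adult regions gained in this setting, 261 (61.8%) overlapped a region of the full P0 lists, so they were present at birth among weaker peaks. Of the 1027 strong P0 regions, 313 (30.5%) met no peak of either full adult list. Of the 837 strong adult regions, 71 (8.48%) met no peak of either full P0 list.

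**Figure D1:**
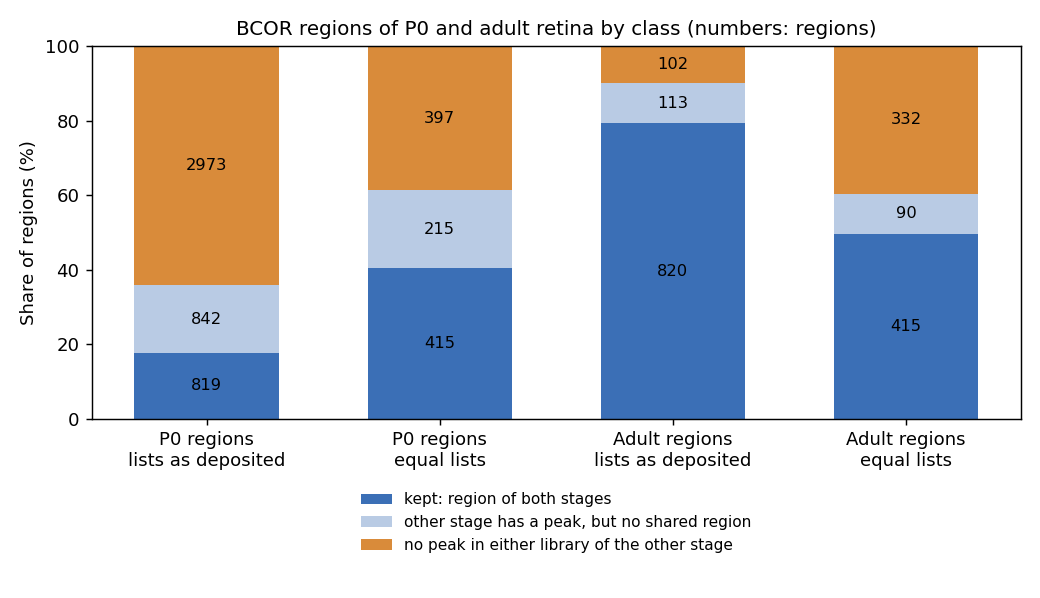
Share of BCOR regions in each class, with the number of regions printed in the bars; the vertical axis is the percentage of the regions of that stage. With the lists as deposited 819 of 4634 P0 regions and 820 of 1035 adult regions were kept, and with equal lists 415 of 1027 and 415 of 837.

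Single libraries also moved the shares. Without adult replicate 1, the shortest list, 32.3% of P0 regions were kept and 38.3% of adult regions were gained. Without P0 replicate 1 these shares were 10.5 and 10.7%. The stage with 1 library left was counted by all peaks of that library, with no replicate required. These were 2445 adult peaks in the former setting and 8784 P0 peaks in the latter, so the unit changed too. Compared list by list, 18.8 and 28.5% of the peaks of P0 replicate 1 met a peak of adult replicates 1 and 2, and 12.9 and 20.6% of the peaks of P0 replicate 2 did. In the other direction, 74.6 and 85.4% of the peaks of adult replicate 1 met a peak of P0 replicates 1 and 2, and 61.7 and 74.3% of those of adult replicate 2 did. The shares counted on the adult lists are the higher ones because those lists are shorter and the numbers of overlapping peaks nearly equal.

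The difference between the stages was larger than the difference between replicates. At 1339 peaks per list, the P0 replicates shared 77.0% of their peaks and the adult replicates 62.9%. The 4 pairs of lists from different stages shared 42.4 to 46.8%, below both. The mean was 69.9% within a stage and 44.8% between stages, 25.1 percentage points apart. An exact permutation test over the 3 ways of pairing 4 libraries gave a two-sided p of 0.333, the smallest this design allows, so it cannot reach the usual threshold. Otx2, measured by the same assay, is given beside it with no test and from full lists. Those lists held 21759 and 24884 peaks at P0 and 7183 and 14590 in the adult. Of its 18280 P0 regions 23.2% were kept, and 36.3% of its 6591 adult regions were gained. The full BCOR lists gave 17.7% kept and 20.8% gained.

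**Figure D2:**
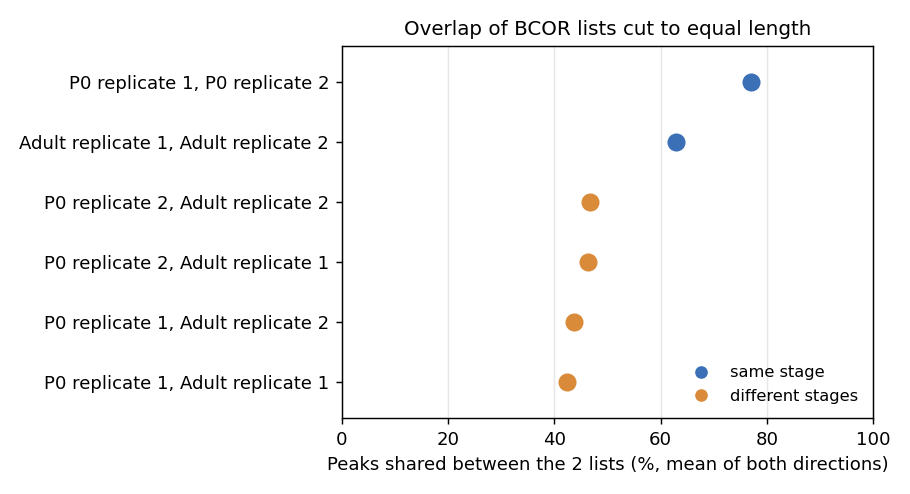
Share of peaks that 2 BCOR lists had in common at 1339 peaks per list, as the mean of both directions in percent, 1 point per pair of libraries. The 2 pairs of the same stage lie at 62.9 and 77.0%, and the 4 pairs of different stages between 42.4 and 46.8%.

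The strongest newborn regions were kept most often. Strength is the fold of signal over background that the authors' peak caller gave, taken as the lower of the 2 replicates. P0 regions were ordered by strength and cut into 10 bins. In the strongest bin 227 of 464 were kept (48.9%, interval 44.4 to 53.5%), and in bin 2, the next to weakest, 44 of 463 were (9.50%). The weakest bin stood above its neighbour with 72 of 464 (15.5%). It held the 26 P0 regions whose fold was under 3 in both libraries, 22 of which were kept. Peaks with a fold under 3 but a −log10 q-value above 50 numbered 25 and 22 in the P0 lists and 26 and 21 in the adult lists. Without such peaks, a setting added later, 17.3% of P0 regions were kept. What these peaks are was not tested. The median lower fold was 6.85 for kept, 5.86 for part lost and 5.07 for wholly lost regions. Not all strong regions were kept: of the 100 strongest P0 regions 69 were kept, 16 part lost and 15 wholly lost.

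In the adult lists the kept share showed no such slope. It was 84.6% in the strongest bin, 85.6% in the weakest and 70.9 to 84.6% in the others. Wholly gained regions were not the weak end of the adult set. Their median lower fold was 5.56, against 5.07 for adult regions that were kept.

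**Figure D3:**
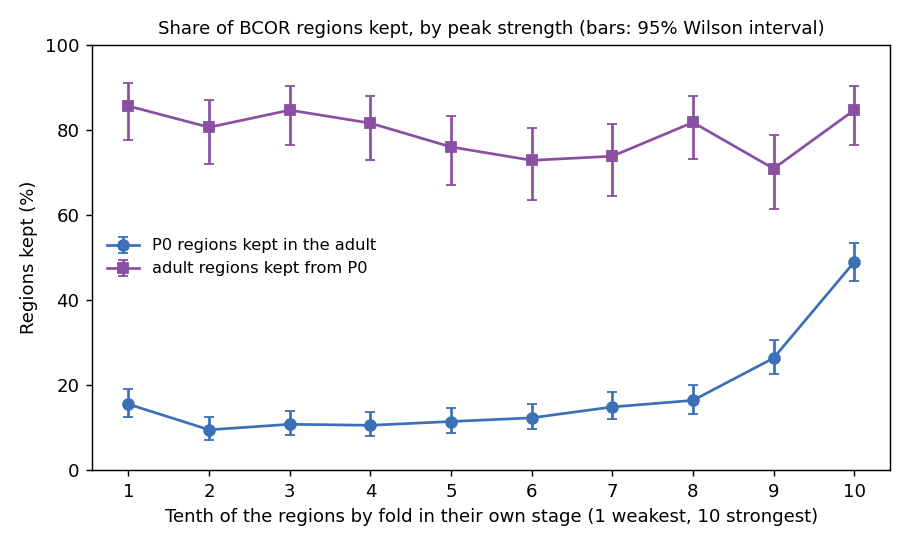
Percentage of regions kept in each of 10 bins of the regions of a stage, ordered by the lower of the 2 replicate folds, with 95% Wilson intervals as bars. For P0 regions the share rises from 9.50% in bin 2 to 48.9% in bin 10, while for adult regions it stays between 70.9 and 85.6%.

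Kept regions, which overlap between stages by definition, formed 823 overlapping pairs of a P0 and an adult region. The median width was 686 bases at P0 and 434 in the adult, and 702 pairs (85.3%) were narrower in the adult. Over all regions the median width was 541 bases at P0 and 426 in the adult, so narrower adult regions were not limited to the kept ones. The strongest summits of a pair lay a median of 33 bases apart between the P0 replicates and 40 between the adult replicates. Between stages the median was 42 to 48 bases over the 4 pairs of libraries, a description of regions chosen for their overlap.

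The order of strength among kept regions changed more between stages than between replicates. Across the 823 pairs, Spearman's rho of the folds was 0.877 between the P0 libraries and 0.636 between the adult libraries. Between stages it was 0.401 to 0.482, below both. These are correlations across places in the genome within single libraries, and the places are not independent replicates. The median fold of the pairs was 6.97 and 10.4 in the P0 libraries and 5.23 and 7.01 in the adult libraries, values that depend on each library and are not compared.

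The kept regions named here were ranked by the lowest of their 4 BCOR folds, so high folds at both stages were set by that choice and are given as a description. Folds at a place could also be unlike at the 2 stages, in libraries whose scales differ. At chr10:11037815-11038471, chosen after its values were seen, the P0 folds were 5.67 and 14.6 and the adult folds 24.8 and 48.1. At chr10:70061258-70062923 the P0 folds were 29.4 and 41.9 and the adult folds 31.9 and 49.0, the first rank of the adult set. At chr11:97176771-97177534 the P0 folds were 27.2 and 47.8 and the adult folds 24.4 and 30.1. The top region of P0, chr11:115396799-115398026, had P0 folds of 50.3 and 78.5 and adult folds of 20.6 and 30.9. All 3 also carried a BCOR peak at E14, with folds of 13.7, 13.0 and 14.3, as did 98.4% of all kept regions. Otx2 at the first of them had a fold of 3.93 in P0 replicate 1, no peak in P0 replicate 2 and adult folds of 9.43 and 45.3.

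The next kept regions come from the same ranking. At chr4:48055532-48056657 the P0 folds of BCOR were 32.9 and 47.5, and the place ranked 5 among adult regions by its lower fold. At chr17:34255945-34257063 the P0 folds were 22.4 and 33.8 and the adult folds 19.6 and 17.2. At chr9:86357834-86358891 they were 20.9 and 44.9, then 16.3 and 28.3. Each of these 3 places had an Otx2 peak at E14 and in both P0 libraries.

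Some of the strongest newborn regions had no adult peak at all. The wholly lost region chr5:133018893-133020258 ranked second of all P0 regions, with BCOR folds of 45.5 and 56.4. It had a BCOR fold of 12.8 at E14, and Otx2 folds of 4.19 and 6.46 at P0 with no adult Otx2 peak. At chr15:98956450-98957678 the BCOR folds were 23.5 and 37.4 at P0 and 13.7 at E14, with an Otx2 peak at E14 alone. At the former place neither protein had an adult peak, and at the latter Otx2 had none from P0 on.

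At chr7:53121317-53122090 the P0 folds of BCOR were 23.2 and 35.9, and at chr14:19725578-19726725 they were 23.0 and 31.1. Neither place had an Otx2 peak in any of the 5 Otx2 libraries, so BCOR was found there without Otx2. At chr19:10257101-10257941 the BCOR folds were 22.2 and 35.1, with Otx2 folds of 11.3 and 13.7 at P0. At chr10:126817078-126817929 they were 22.0 and 23.9, with Otx2 folds of 3.22 and 8.33. None of the 6 wholly lost regions with the highest folds had an adult Otx2 peak, and all 6 had a BCOR peak at E14. Of all 2973 wholly lost regions, 38.4% had an adult Otx2 peak of either replicate and 81.5% had a BCOR peak at E14. Among wholly lost regions in the strongest of 5 bins of P0 fold, 92.4% had the E14 peak.

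The windows of 100 kb with most lost regions are given as a description, since most P0 regions were lost and windows rich in them hold many lost ones. The window chr4:88400001-88500000 held 12 P0 regions, all of them lost and 11 wholly lost, and no adult region. The window chr13:23600001-23700000 held 8, all wholly lost, and chr3:96000001-96100000 held 8, of which 6 were wholly lost. Most lost regions stood alone, with 2455 windows of 100 kb holding 1 lost region each, 461 holding 2 and 96 holding 3. A wholly lost region lay a median of 554 kb from the nearest adult region, and 64 of 2973 (2.15%) lay within 10 kb of one.

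In the full lists the classes differed in BCOR peaks before birth. A BCOR peak at E14 was present at 806 of 819 kept regions (98.4%) and at 2422 of 2973 wholly lost regions (81.5%, interval 80.0 to 82.8%). At wholly gained regions it was present at 20 of 102 (19.6%, interval 13.1 to 28.4%). With the 4 BCOR lists at equal length these shares were 99.5% at kept, 97.0% at wholly lost and 77.7% at wholly gained regions, closer together than in the full lists. The E14 list, with 10736 peaks, was longer than each of the other BCOR lists. In each of 5 bins of the adult regions by fold, 97.5 to 99.4% of the kept regions had the E14 peak. For wholly gained regions this count went from 8 of 12 in the weakest bin to 1 of 25 in the strongest. Thus 82 wholly gained regions were found in the adult BCOR lists alone.

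Otx2 was found at most kept regions at every stage and at fewer of the wholly lost ones. Of the 819 kept regions, 743 (90.7%) had an Otx2 peak at E14. In P0 replicates 1 and 2 this number was 723 and 737, and in adult replicates 1 and 2 it was 562 and 757, or 68.6 and 92.4%. For wholly lost regions the E14 library gave 53.7%, the P0 libraries 61.7 and 65.8%, and the adult libraries 12.2 and 38.2%. In each of the 5 Otx2 libraries the share was lower at wholly lost than at kept regions. No Otx2 peak was found in any of the 5 libraries at 696 wholly lost regions (23.4%) and at 21 kept regions (2.56%). A peak in all 10 lists of the series was found at 521 kept regions (63.6%). Kept regions have BCOR at both stages by definition, and wholly lost regions, without an adult BCOR peak, cannot reach all 10.

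Part lost regions lay near the kept ones at P0, with an Otx2 P0 region at 82.1% against 86.2%, and lower in the adult, with an Otx2 region at 47.3%. For wholly lost regions the Otx2 share was below that of kept regions at every strength of BCOR. In the 5 bins of P0 fold, an Otx2 P0 region lay at 83.4 to 92.9% of kept and at 51.7 to 63.1% of wholly lost regions. An adult Otx2 region lay at 59.3 to 80.8% of kept and at 9.19 to 15.0% of wholly lost regions. The ranges did not overlap. No test was made of classes of regions against each other, since regions are not replicates.

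Where BCOR peaks were wholly lost, Otx2 often had no adult peak either, but less often than over all Otx2 P0 regions. An Otx2 region at P0 lay at 1723 wholly lost regions. In the adult, 345 of these (20.0%, interval 18.2 to 22.0%) had an Otx2 region, 935 (54.3%) had a peak of at least 1 Otx2 library and 788 (45.7%) had none. Of 706 kept regions with Otx2 at P0, 546 (77.3%) had an adult Otx2 region and 10 (1.42%) had no adult Otx2 peak. Over all Otx2 P0 regions, 23.2% had an adult region, and over the 12810 that met no BCOR peak at P0 it was 18.9%. Over Otx2 P0 regions with a BCOR P0 region it was 41.2% (1286 of 3124). By adult regions of both replicates, the share at wholly lost BCOR regions was thus near that of Otx2 regions in general. The share at kept regions was above it. By peaks of either replicate the reading differed. No adult Otx2 peak was found at 11097 of the 18280 Otx2 P0 regions (60.7%), against 45.7% at wholly lost BCOR regions with Otx2 at P0.

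**Figure D4:**
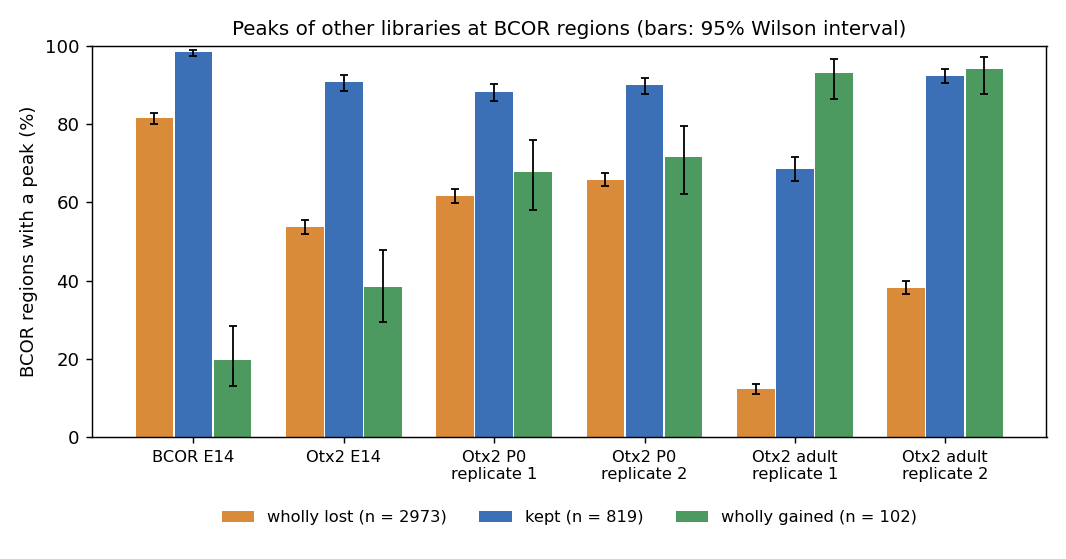
Percentage of wholly lost, kept and wholly gained BCOR regions that met a peak of each of 6 other libraries, with 95% Wilson intervals as bars. Kept regions lie at 98.4% for BCOR at E14, wholly lost regions at 12.2 and 38.2% for adult Otx2, and wholly gained regions at 19.6% for BCOR at E14 and at 93.1 and 94.1% for adult Otx2.

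Wholly gained BCOR regions lay at the strongest Otx2 peaks of the adult retina. An adult Otx2 region was present at 93 of 102 (91.2%, interval 84.1 to 95.3%), against 560 of 820 (68.3%, 65.0 to 71.4%) of the adult regions that were kept. That gap came from adult Otx2 replicate 1, where the shares were 93.1 and 68.4%, while in replicate 2 they were 94.1 and 92.1%. With BCOR lists cut to 1339 peaks and Otx2 lists to 7183, the shares of an adult Otx2 region were 74.1% (69.1 to 78.5%) and 68.0% (63.3 to 72.3%). The intervals overlapped. The strength of the Otx2 peaks differed in both libraries. The Otx2 peaks there had a median fold of 36.5 in adult replicate 1 and 88.2 in adult replicate 2. Ranked within their own lists these medians were percentiles 97.8 and 98.9. At kept adult regions the Otx2 medians were 7.40 and 18.6, percentiles 50.1 and 79.4.

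The 5 classes followed 1 order of Otx2 strength in the adult, with kept regions taken here as those of P0. In adult Otx2 replicate 1 the median percentile of the Otx2 peak was 28.9 at wholly lost, 39.6 at part lost, 49.6 at kept, 69.0 at part gained and 97.8 at wholly gained regions. In replicate 2 these were 50.1, 68.2, 78.8, 84.8 and 98.9. The order was the same in both libraries. At E14 it was not: the wholly gained regions with an Otx2 peak, 39 of 102, had the lowest median percentile there, 47.4, against 79.6 at kept regions. At P0 the classes were closer, with medians of 64.3 to 83.2 in replicate 1 and 64.6 to 81.8 in replicate 2.

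**Figure D5:**
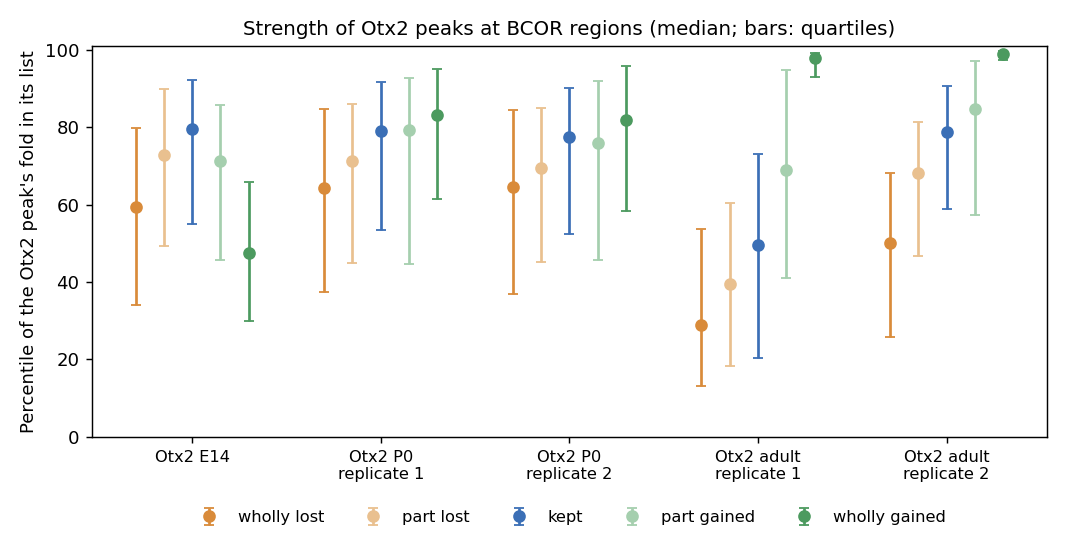
Percentile of the fold of the strongest Otx2 peak at a BCOR region, within the Otx2 list it comes from, for the regions of each class that met a peak in that list; points are medians, bars quartiles, and kept regions are those of P0. In both adult libraries the medians rise from wholly lost (28.9 and 50.1) to wholly gained (97.8 and 98.9).

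Counted over the Otx2 regions themselves, wholly gained BCOR was concentrated at the top. Adult Otx2 regions were cut into 10 bins by fold. Of the 659 in the strongest bin, 72 (10.9%) held a wholly gained BCOR region. In the other 9 bins this share was 0 to 0.910%, and over all 6591 adult Otx2 regions it was 1.37%. Kept BCOR regions had no such concentration in the adult, with 6.83% in the strongest and 14.5% in the weakest bin. At P0 they did lie more often at strong Otx2 regions, with 9.08% in the strongest bin, 3.23% in the weakest and 1.37% in the next. BCOR regions that were later wholly lost were at 14.9% of the strongest and 8.70% of the weakest of 10 bins of Otx2 regions.

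A P0 Otx2 peak in at least 1 library was found at 76 of 102 wholly gained places (74.5%) and at 749 of 820 kept adult regions (91.3%). Over all 6591 adult Otx2 regions, of every strength, 27.5% had no P0 Otx2 peak, so the wholly gained places were near that share. This background was not matched for the strength of Otx2, which was high at the wholly gained places. A P0 Otx2 region was found at 67 of the 102 wholly gained places (65.7%). Both a P0 and an adult Otx2 peak were found at 75, and an adult peak without a P0 peak at 23. No adult Otx2 peak was found at 4. The summits of BCOR and Otx2 lay close together, a median of 48 and 41 bases apart in the 2 adult Otx2 libraries.

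The wholly gained regions with the highest BCOR folds had these values. At chr1:89699885-89700497 BCOR had no peak at E14 or P0 and folds of 14.1 and 14.9 in the adult, while the folds of Otx2 were 6.48 at E14, 40.8 and 50.4 at birth, then 148 and 393. At chr2:31221266-31221593 adult BCOR had 13.7 and 27.6, and Otx2 had P0 folds of 19.7 and 29.1 and adult folds of 175 and 271. At chr19:53881144-53881680 adult BCOR had 12.8 and 15.0, and Otx2 had 29.8 and 29.5, then 160 and 255. In all 3, Otx2 was bound at birth and both of its adult folds were above both of its P0 folds, in libraries whose scales differ.

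The next wholly gained regions had lower BCOR folds. At chr1:178800555-178801108 adult BCOR had 10.6 and 11.4, and Otx2 had P0 folds of 38.3 and 50.2 and adult folds of 51.3 and 197. At chr17:7209716-7210353 adult BCOR had 11.3 and 9.77, and adult Otx2 61.6 and 103. At chr8:13404758-13405248 adult BCOR had 9.48 and 13.9, and Otx2 had P0 folds of 8.52 and 9.37 and adult folds of 65.3 and 184. None of the 6 had a BCOR peak at E14, and neither did 82 of all 102 wholly gained regions (80.4%). These BCOR folds were lower than those of the strongest wholly lost regions at P0, although the 2 stages are on different scales.

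Gained regions were sparse along the genome. Of the 4 windows with 3 gained regions, those named are chr17:47000001-47100000, chr17:47500001-47600000 and chr2:22400001-22500000, each with 3 adult regions, all of them wholly gained, and 0 P0 regions. In 187 windows of 100 kb there was 1 gained region. A wholly gained region lay a median of 103 kb from the nearest P0 BCOR region and 573 kb from the nearest kept adult region.

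The pattern at gained regions was also read at equal list lengths, a setting added after the values were seen for the Otx2 percentile and the E14 share. With equal list lengths, wholly gained regions numbered 332, and 77.7% of them had a BCOR peak at E14. Their median Otx2 percentile, averaged over the 2 adult Otx2 libraries, was 82.6 against 63.0 at kept regions.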

How the data were processed

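Peak lists of CUT&RUN libraries were used as deposited. Peaks were called with MACS2 for each library, per the labels, and the submitters' processing notes also name Bowtie2, without versions. The control and the threshold are not given in the sources used here. For each peak the deposited lists give a score, a fold (the ratio over background), the −log10 of a p-value and of a q-value, and a summit. Each is the authors' value for that peak in that library, so folds of different libraries are only set side by side. The notes name mm9 and mm10, and the chromosome names and peak positions are those of mm9. No sequence, promoter or gene was assigned.

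Overlaps (at least 1 base), regions and Wilson intervals were computed with Python 3.11.15, pandas 2.3.3 and scipy 1.17.1, and the region code was tested on simulated lists. The regions' definition, tests and alternatives, and which regions are named, were chosen with earlier results of these data known. Named are the 6 regions of each class (kept, wholly lost, wholly gained) ranked by the lowest fold of their libraries (all 4 for kept, those of the stage otherwise), and the 3 windows of 100 kb with most lost or gained regions, chromosome 18 left out. Alternatives were list length, q-value, overlap, summit distance, either replicate and leaving out a library. RNA counts were not used.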

Additional observations from a re-analysis of the deposited data

Results flagged for a closer look

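BCOR peaks were also found outside chromosomes 1 to 19, which no comparison above used. A region of both replicates was found at 74 places of chromosome X at P0 and at 24 in the adult. Of the former 11 were kept, and of the latter 13 were gained, 4 of them wholly. On unplaced or random sequence, P0 replicates 1 and 2 had 19 and 37 peaks, and adult replicates 1 and 2 had 24 and 20. On the mitochondrial genome, adult replicate 1 had 5 peaks and adult replicate 2 had 1, while both P0 replicates had 0. These numbers, but for that of adult replicate 2 on the mitochondrial genome and the zeros, exceed 3, the cut-off set for flagging a count. Passing it is no test, since no expected number of such peaks is known. No untreated or antibody control was analysed here.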

How the results depend on the processing

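The kept share of P0 regions, 17.7%, was 40.4% with equal list lengths and 40.0% with each P0 list reduced to the length of the adult list of its number (a setting added later). It was 16.6% at a q-value of at most 0.01, 15.9% with summits within 200 bases and 35.8% with a peak of either adult replicate. The gained share of adult regions, 20.8%, was 50.4, 52.3, 28.6 and 9.86% in those settings other than the q-value. Leaving out 1 library, with all peaks of the other library of that stage counted in place of regions, gave 10.5 to 32.3% kept and 10.7 to 38.3% gained. With a peak of either Otx2 replicate, Otx2 lay at 91.9% of kept and 69.5% of wholly lost regions at P0, at 38.4% of wholly lost, 92.2% of kept and 96.1% of wholly gained regions in the adult, and at 74.5% of wholly gained regions at P0. With BCOR lists cut to 1339 peaks and Otx2 lists to 7183, these were 65.8, 34.0, 14.6, 68.0, 74.1 and 53.3%. Both cuts enter these values. A BCOR peak at E14 lay at 94.4% of kept and 55.2% of wholly lost regions with the strongest E14 peaks, and at 99.5, 97.0 and 77.7% of kept, wholly lost and wholly gained regions with equal lists. The mean Otx2 percentile at wholly gained regions, 98.4, was 82.6 with equal lists and 92.7 to 98.3 without 1 library. The order of kept against wholly lost, and of kept against wholly gained, was the same in these settings. The gap between stages was −27.5 points ranked by fold and −29.2 with 500 peaks. No paired analysis was possible because the shares of regions come from no test and replicate numbers are not said to pair libraries. The cause of these shifts was not tested. Depth is unknown and may limit the adult lists.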

Other observations

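The kept share of P0 regions ranged from 12.0% on chromosome 16 (15 of 125) to 23.6% on chromosome 9 (66 of 280). The gained share of adult regions ranged from 10.6% on chromosome 15 (5 of 47) to 31.2% on chromosome 14 (10 of 32). Over the 2973 wholly lost regions, the median distance to the nearest adult Otx2 region was 72.3 kb. Of them, 593 (19.9%) lay within 10 kb of such a region, a count that includes the 367 that overlapped it. No such distance was taken for kept regions. The summits of BCOR and P0 Otx2 peaks lay a median of 45 and 48 bases apart at kept regions and 53 and 50 at wholly lost regions.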
